A study of Mus musculus with 24 samples.

Results

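Germinal center B cells of the mouse spleen were compared between day 40 and day 7 after immunization, with 3 arrays for each day, chosen by the sample titles. These 6 arrays are part of a set of 24 that covers 8 groups of B cells, and the other 18 enter below only for the spread of each gene and for comparison. All mice were female C57BL/6 animals, 8 to 10 weeks old when they received the hapten NP coupled to a carrier protein (NP-CGG) in alum, and no group carries a genetic change. Splenocytes of both days were first depleted with antibodies to unswitched B cells (IgM and IgD), T cells (CD3, CD90 and CD5), granulocytes (Gr1), macrophages (F4/80), natural killer cells (NK1.1 and DX5) and red cells (TER119). Cells that bound NIP, a related hapten, and were B220+ IgG1+ CD38dull PNA+ were then sorted, and their amplified RNA was hybridized to Affymetrix Mouse Genome 430 2.0 arrays. The 2 groups differ in the day of collection, so that cells of day 40 come from mice 33 days further from immunization. Age and time since immunization cannot be told apart. Whether the 3 samples of a day came from different animals is not given, so p-values cover the spread between these samples alone, and that spread may be technical.

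Germinal centers form in B cell follicles after activated B cells receive help from T cells. In their dark zone, B cells divide rapidly and mutate their antibody genes. In their light zone, B cells test the mutated receptor on antigen held by follicular dendritic cells, present antigen to T helper cells and compete for signals through CD40. Selected cells return to the dark zone or leave as memory B cells or plasma cells. Bcl6 is the transcriptional repressor that holds cells in this state, and Prdm1 (Blimp-1) is the repressor that drives plasma cell differentiation. With a protein antigen in alum, splenic germinal centers peak in the early weeks and shrink later, so day 40 samples what persists of the reaction.

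Signals are on the log2 scale, with a lowest value of 2.15 shared by 40.6% to 42.4% of the probe sets on these 6 arrays, and array medians between 2.40 and 2.48. A gene is called at background in a group when each of its 3 arrays lay at or below its own median. A change against such a group is a lower bound. Over genes (not independent replicates), the 3 arrays of day 7 correlated with each other at r = 0.983 to 0.987 and those of day 40 at 0.987 to 0.992, while pairs of different days gave 0.968 to 0.974. B lineage genes were at like levels on both days. Cd79a, the signalling chain of the antigen receptor, read 14.13, 14.09 and 14.16 at day 7 and 14.08, 13.97 and 14.00 at day 40. Ptprc, whose B220 isoform was used for the sort, read 13.84 to 14.01 at day 7 and 13.81 to 13.99 at day 40. Of 15 T cell markers with a probe set, 4, 3 and 5 lay above background on the day 7 arrays and 8, 4 and 4 on the day 40 arrays, with summed levels of 43.65 to 52.13 over the 6 arrays. Cd3e, a chain of the T cell receptor complex, read 2.15 on 5 arrays and 2.55 on replicate 1 of day 40, while Cd2, an adhesion receptor that mouse B cells also express, read 12.82, 12.55 and 13.02 at day 7 and 11.23, 10.87 and 11.19 at day 40.

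That replicate stood apart from the other 5 arrays most clearly in granulocyte and monocyte markers. Of 15 such markers with a probe set, 8 lay above background in it, against 0 in either of the other day 40 arrays and 4, 3 and 1 in the day 7 arrays. S100a9, a calcium-binding protein abundant in neutrophils, read 9.38, 10.03 and 2.15 at day 7 and 13.84, 2.15 and 2.15 at day 40. The summed level of the 15 markers was 48.05, 46.75 and 34.88 at day 7 and 83.12, 32.31 and 32.30 at day 40. Of 20 macrophage markers, 13 lay above background in replicate 1 of day 40 and 5 to 7 on the other arrays. Csf1r, the receptor for macrophage colony-stimulating factor, read 6.73 in that replicate and 2.15 on the other 5. Of 11 natural killer cell markers, 4 lay above background in replicate 1 of day 40 and 1 or 2 on each other array, and of 12 erythroid and platelet markers, 4 against 1 or 2. The summed level of the natural killer markers was 38.51 in that replicate and 31.52 to 33.40 on the others, and that of the erythroid and platelet markers 41.96 and 30.22 to 37.72. No granulocyte or macrophage marker was called between the days. Of 11 T cell markers tested, 1 was lower at day 40, Cd2 (a change of -1.70, adjusted p = 0.0285), and its call was kept without replicate 2 of day 7 but ended without any other array. The part of these transcripts in the results below was not tested beyond leaving this array out. Calls that end without it are named for the gene lists and the widest changes, and only counted for the lists added at the end.

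**Figure D1:**
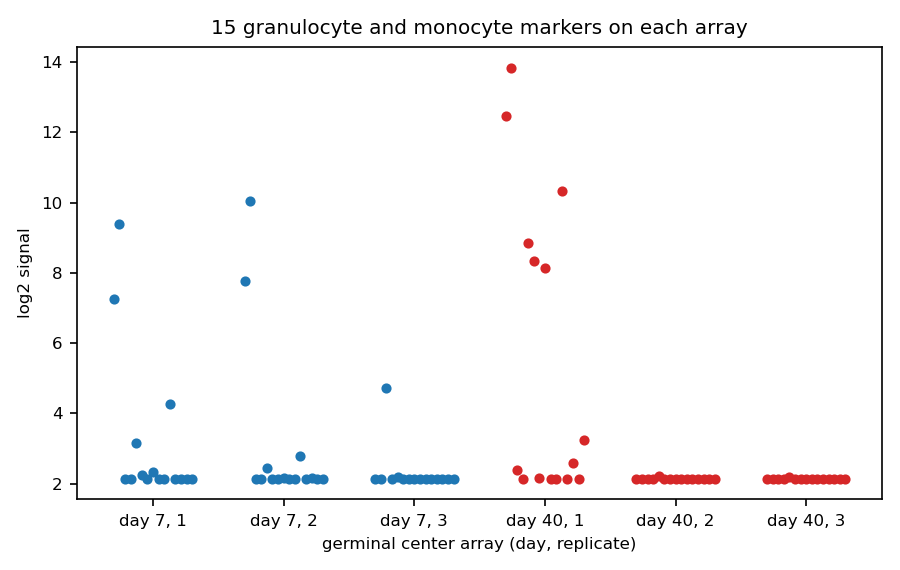
Log2 signal of 15 granulocyte and monocyte marker genes (points) on each of the 6 germinal center arrays, day 7 in blue and day 40 in red. Replicate 1 of day 40 holds 8 markers above background with S100a9 at 13.84, while its companions at day 40 hold 0.

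The first question was how far germinal center cells of day 40 differ from those of day 7. Of 11208 genes tested, 401 (3.58%) were higher at day 40 and 263 (2.35%) were lower, with limma over all 24 arrays at a Benjamini-Hochberg adjusted p under 0.05 and a log2 change of at least 1. The median change of all tested genes was 0.01. At these shares a short list is likely to hold few or no calls. Small counts in the lists below therefore do not set a list apart from all genes. The lists were chosen with earlier results of these data known, and some share members, so their counts are descriptions and not tests. Of the called genes, 385 of the 401 and 252 of the 263 had 3 arrays of one day all above the 3 of the other, while 27.5% of all tested genes separated in this way. At an unadjusted p under 0.05 there were 2176 genes of either direction. When arrays were shifted to the same median, 360 were higher and 324 lower, so that higher genes made up 52.6% of the calls in place of 60.4%. With a stricter filter on low signals the counts were 219 and 208. Without replicate 1 of day 40, 341 genes were higher and 244 lower. Standard errors and p-values rest on the spread in all 8 groups. A gene at the floor in several groups has an SD of 0 or near it there. Its SE and p-value then rest partly on values cut off at the floor, not on replicate spread. With the 6 germinal center arrays alone, 268 genes were higher and 157 lower.

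Of 17 tested members of the program that defines germinal center B cells, 16 had mean levels above 8 on both days. The exception was Gcnt2, a branching glycosyltransferase, at 2.98, 3.03 and 3.29 on day 7 and 2.95, 3.08 and 2.80 on day 40. Of the 17, 0 were called, and the median change was 0.22, with a range from -0.23 to 1.91. Bcl6 read 14.19, 14.00 and 13.62 at day 7 and 14.16, 14.14 and 14.09 at day 40, overlapping values near the top of the scale. S1pr2, the sphingosine phosphate receptor that keeps B cells inside the germinal center, read 12.87, 12.86 and 12.56 at day 7 and 12.51, 12.54 and 12.54 at day 40. The day 40 arrays lay just below those of day 7, a change of -0.23 ± 0.91 (SE, adjusted p = 1). Its SE reflects the wide spread of S1pr2 within other groups. Gcsam, a germinal center adaptor protein that restrains motility, overlapped between the days with a change of 0.17, and Fas, the death receptor used to identify these cells, had a change of 0.61 (adjusted p = 0.638).

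Without passing the test over all groups, 7 members (Basp1, Ezh2, Fas, Gpsm2, Mef2b, Mybl1 and Rgs13) were higher on every day 40 array than on any day 7 array, and Neil1 and S1pr2 were lower. Mef2b, a transcription factor that activates Bcl6, read 11.12, 10.68 and 10.44 at day 7 and 12.11, 12.15 and 12.10 at day 40, a change of 1.37 with an adjusted p = 0.631. Rgs13, a regulator of G protein signalling in germinal centers, had a change of 1.91 with an adjusted p = 0.242. With the 6 germinal center arrays alone both were called, Mef2b with an adjusted p = 0.0243 and Rgs13 with an adjusted p = 0.00919.

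Among genes of cell division, 0 of 25 mitosis genes tested were called, beside 3.58% higher and 2.35% lower of all genes. Their median change was 0.36, with a range from 0.02 to 0.79. Mki67, the proliferation marker, read 14.88, 14.90 and 14.63 at day 7 and 14.83, 14.85 and 14.86 at day 40, and the days overlapped. Of 27 DNA replication genes, 1 was called higher and 0 lower, with a median change of -0.01. The call was Tyms, thymidylate synthase, at 2.30, 4.94 and 2.61 on day 7 and 5.32, 4.57 and 5.40 on day 40. Its values overlap between the days, other probe sets of Tyms changed by 0.01 to 0.19, and the call ended without replicate 1 or replicate 3 of day 7. Of 22 genes of somatic mutation and DNA repair tested, 0 were called (median change 0.08).

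Dark zone genes gave 0 calls among 12 tested, with a median change of 0.14. Cxcr4, the chemokine receptor that places cells in the dark zone, read 14.48, 14.17 and 14.19 at day 7 and 14.53, 14.67 and 14.33 at day 40, with overlap. Light zone genes gave 5 higher and 2 lower (Gpr183 and Ccr6) of 22 tested, beside 3.58% higher and 2.35% lower of all genes, with a median change of 0.57. Cd83 and Cd86, surface markers of light zone cells, had changes of -0.02 and -0.54 and were not called. The members that rose encode a receptor for T cell help (Cd40), transcription factors (Egr1, Egr2 and Batf) and a cyclin (Ccnd2).

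**Figure D2:**
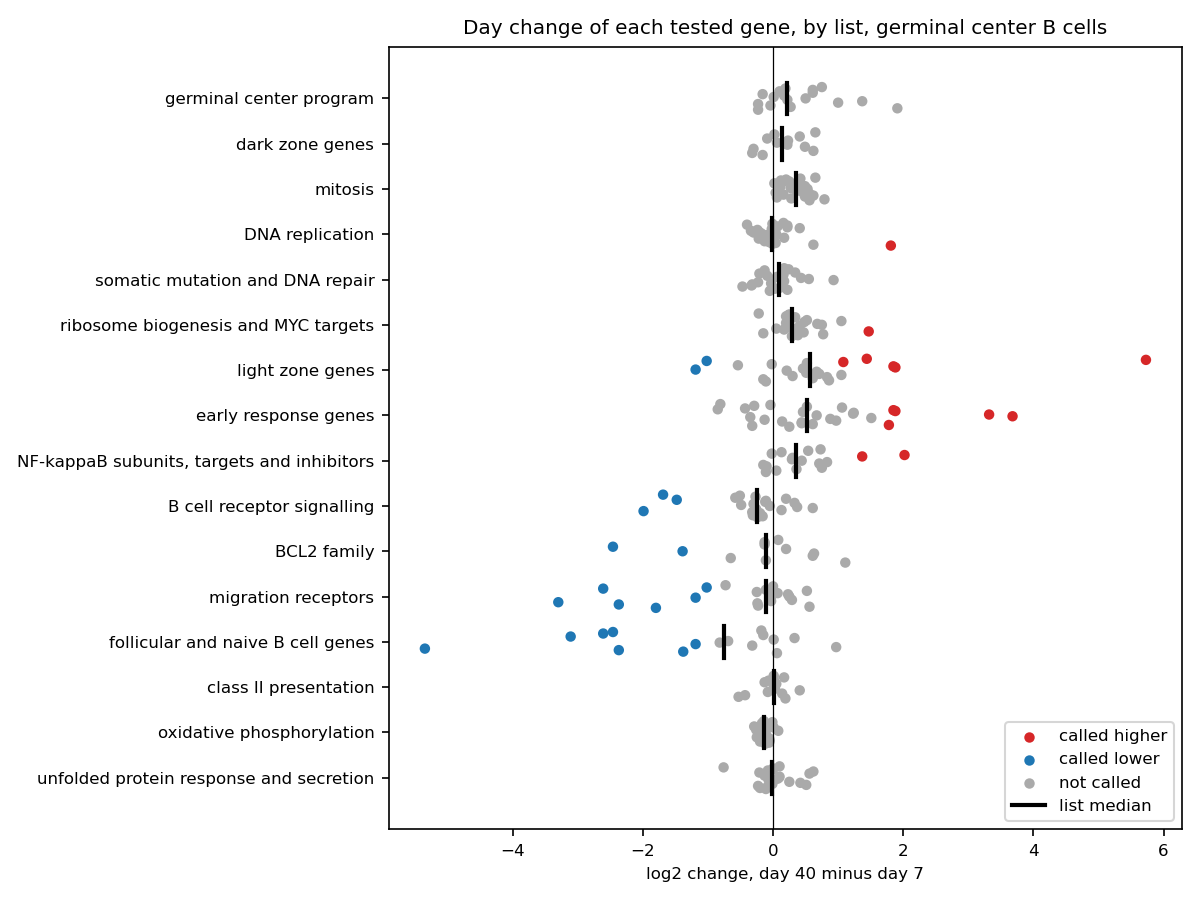
Log2 change from day 7 to day 40 of each tested gene (points) in 16 gene lists, with genes called higher in red, called lower in blue and not called in grey, and a black bar at the list median. The germinal center program, mitosis and dark zone lists have 0 calls and medians of 0.22, 0.36 and 0.14, with every mitosis gene above 0, and the follicular and naive B cell list has a median of -0.75 with 7 genes called lower.

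Ccnd2, the D-type cyclin that drives entry into the cell cycle in B cells, had the most marked rise among cell cycle genes. It read 2.63, 4.28 and 3.10 at day 7 and 8.83, 9.22 and 9.15 at day 40. All day 40 arrays were far above all day 7 arrays, with a change of 5.73 ± 0.31 (SE, adjusted p = 1.86e-10). Each of its 7 probe sets was higher at day 40, by 1.24 to 5.73. Follicular B cells had a mean level of 10.85, so the low value was that of day 7. Of 23 D cyclins, cyclin-dependent kinase inhibitors and E2F factors tested, 2 were higher and 1 lower, with a median change of 0.15. The other rise was Cdkn1a (p21), an inhibitor of cyclin-dependent kinases that p53 induces. It read 2.89, 3.41 and 2.38 at day 7 and 8.03, 6.32 and 8.12 at day 40, again without overlap. The change was 4.60 ± 0.73 (SE, adjusted p = 0.000269), while a second probe set of Cdkn1a changed by 0.16, at mean levels up to 2.36. Cdkn1b (p27), an inhibitor typical of resting lymphocytes, fell by 1.28 on the log2 scale (adjusted p = 0.00108), a call that ended without replicate 3 of day 7, the highest array.

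Early response genes gave 5 rises and 0 falls among 27 tested, beside 3.58% higher and 2.35% lower of all genes. The median change was 0.52. Receptor signalling itself was not measured. Egr1, a zinc finger factor induced by antigen receptor signalling, read 11.48, 11.57 and 12.01 at day 7 and 13.52, 13.57 and 13.52 at day 40. Its day 40 values were nearly identical and all higher, with a change of 1.85 ± 0.32 (SE, adjusted p = 0.000631). Egr2 read 11.20, 11.30 and 9.59 at day 7 and 12.48, 12.73 and 12.52 at day 40, a change of 1.88 ± 0.44 (SE, adjusted p = 0.00864), and its call ended without replicate 3 of day 7. Ier3, a stress and survival gene that NF-kappaB induces, was at background at day 7 (2.15, 2.36 and 2.23) and read 6.05, 5.86 and 5.88 at day 40. Day 40 was thus at least 11.3-fold higher, taken over the array median (adjusted p = 2.74e-09). In follicular B cells stimulated for 6 h through IgM and CD40, Ier3 read 2.15 on every array. Fosl2, a Fos-related partner in AP-1, read 2.34, 2.49 and 2.15 at day 7 and 7.96, 4.02 and 4.97 at day 40. Its highest value lay in replicate 1 of day 40, and the change of 3.32 became 2.17 without that array. Nr4a2, an orphan nuclear receptor, rose by 1.78 ± 0.29 (SE, adjusted p = 0.000297). A second probe set of Nr4a2 rose by 1.69, and the others changed by 0.00 to 0.20, at mean levels up to 2.61. Its call ended when probe sets were averaged. Fos, Fosb and Jun had changes of 1.24, 1.23 and 1.51 and were not called. Of 17 heat shock and tissue dissociation genes tested beside them, 1 was higher (Socs3, an inhibitor of cytokine signalling) and 0 were lower, with a median change of 0.09. The Socs3 call rests on probe sets named as cross-hybridizing, and the remaining probe set changed by 0.32.

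Of 17 genes of NF-kappaB subunits, targets and inhibitors, 2 rose and 0 fell, beside 3.58% higher and 2.35% lower of all genes. The median change was 0.36. Nfkb2, the p100 precursor of the alternative NF-kappaB pathway that CD40 engages, read 9.39, 8.76 and 9.28 at day 7 and 10.45, 10.54 and 10.54 at day 40. The days did not overlap, with a change of 1.37 ± 0.21 (SE, adjusted p = 0.000211), while a further probe set changed by 0.12. Ebi3, a subunit of the cytokines IL-27 and IL-35, read 7.87, 6.13 and 6.52 at day 7 and 8.58, 8.78 and 9.23 at day 40. Its change of 2.02 had an adjusted p = 0.0218, and the call ended without any of replicates 2 and 3 of either day. Cd40 itself read 12.11, 11.77 and 11.92 at day 7 and 12.95, 12.97 and 13.11 at day 40, a change of 1.08 ± 0.14 (SE, adjusted p = 3.44e-05). Its call was lost without replicate 2 of day 7 or when arrays were shifted to the same median, since the change is close to the minimum of 1. Batf, an AP-1 family factor needed for class switching, rose by 1.44 ± 0.31 (SE, adjusted p = 0.00408). Myc, the factor that marks positively selected light zone cells, read 8.56, 8.58 and 10.87 at day 7 and 10.38, 10.40 and 10.38 at day 40. Replicate 3 of day 7 lay above all day 40 arrays, and the change of 1.05 was not called (adjusted p = 0.417). Without that array the change was 1.82 and was not called either (adjusted p = 0.0801), while limma with array weights gave a call at 1.43 (adjusted p = 0.0344).

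Promoter sequences of genes among these rises and of Prdm1 are shown because their signals moved in the same direction and because serum response factor, NF-kappaB and AP-1 motifs are textbook elements of such genes. The windows are from RefSeq (GRCm38.p6) and run from 250 bases before to 50 after an annotated start. A CArG box, the motif of serum response factor, is in capitals in Egr2 (chr10:67537316-67537615, plus strand). NF-kappaB motifs are in capitals in Ier3 (chr17:35821463-35821762, plus strand) and Nfkb2 (chr19:46304487-46304786, plus strand). In Prdm1 (chr10:44458699-44458998, minus strand) the capitals mark TGANTCA, a pattern looser than the AP-1 motif because it allows any middle base. The Prdm1 match is TGAATCA, so it is not shown here as an AP-1 element.
Egr2: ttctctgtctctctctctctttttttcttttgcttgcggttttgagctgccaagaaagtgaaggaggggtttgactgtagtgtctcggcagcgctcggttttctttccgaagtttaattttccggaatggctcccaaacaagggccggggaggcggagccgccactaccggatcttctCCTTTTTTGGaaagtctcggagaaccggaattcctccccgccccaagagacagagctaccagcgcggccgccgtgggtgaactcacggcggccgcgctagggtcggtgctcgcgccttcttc
Ier3: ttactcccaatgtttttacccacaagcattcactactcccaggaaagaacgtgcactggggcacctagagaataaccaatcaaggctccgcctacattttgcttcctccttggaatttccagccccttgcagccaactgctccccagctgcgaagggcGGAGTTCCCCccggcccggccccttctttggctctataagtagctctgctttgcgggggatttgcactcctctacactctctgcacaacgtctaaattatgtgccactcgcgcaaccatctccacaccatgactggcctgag
Nfkb2: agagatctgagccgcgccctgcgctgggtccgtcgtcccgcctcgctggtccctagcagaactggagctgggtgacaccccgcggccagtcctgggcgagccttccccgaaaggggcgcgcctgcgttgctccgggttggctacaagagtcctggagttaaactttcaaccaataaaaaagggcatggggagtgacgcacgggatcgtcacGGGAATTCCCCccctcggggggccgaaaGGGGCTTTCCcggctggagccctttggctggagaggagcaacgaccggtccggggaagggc
Prdm1: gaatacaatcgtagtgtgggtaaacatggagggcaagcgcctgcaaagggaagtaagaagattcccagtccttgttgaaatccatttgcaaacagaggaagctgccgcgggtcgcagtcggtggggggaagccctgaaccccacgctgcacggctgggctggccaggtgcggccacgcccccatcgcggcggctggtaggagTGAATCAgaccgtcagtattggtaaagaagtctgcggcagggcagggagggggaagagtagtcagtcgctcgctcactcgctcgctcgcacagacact
Both strands were searched. The CArG box is found in 1.63% of all 32851 windows, the NF-kappaB motif in 4.51% and TGANTCA in 7.81%. Windows were matched for 311 of the 401 higher and 207 of the 263 lower genes, too few to compare called genes with the rest, so that comparison is void. Their shares were 1.93% and 3.86% for the CArG box, 8.68% and 8.21% for the NF-kappaB motif and 6.43% and 8.7% for TGANTCA, beside 1.64%, 5.95% and 5.99% of the tested genes. The Nfkb2 window holds 3 matches, of which 2 overlap, and the other windows hold 1 each. Egr2 has 5 windows, 4 of them with a match. A match describes the letters only, and no binding was measured.

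Prdm1 read 3.49, 3.49 and 3.14 at day 7 and 6.50, 6.42 and 6.89 at day 40. All day 40 arrays lay above all day 7 arrays, with a change of 3.23 ± 0.55 (SE, adjusted p = 0.000535), and the call held under every alternative run. Its level at day 40 remained in the lower part of the signal range. Other genes of the plasma cell program were not called higher: of 19 tested, Prdm1 was the 1 higher and 2 were lower. The median change was -0.04. Irf4 was higher on every day 40 array than on any day 7 array. Xbp1, the factor that expands the secretory pathway, had a change of -0.51, Irf4, which acts upstream of Prdm1, 0.71 (adjusted p = 0.00213, under the minimum change), and Jchain, the linker of polymeric antibody, -0.04. The members that fell were Ckap4, an endoplasmic reticulum membrane protein (a log2 change of -3.79, adjusted p = 0.000174), and Cd93, a surface protein that maintains long-lived plasma cells (-4.45, adjusted p = 6.27e-05). Of 23 genes of the unfolded protein response and secretion, 0 were called, with a median change of -0.01.

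Among 15 memory markers, 3 were higher and 2 lower, beside 3.58% higher and 2.35% lower of all genes. The median change was 0.07. Nt5e (CD73), an ectoenzyme carried by many memory B cells, read 10.67, 9.76 and 11.56 at day 7 and 12.11, 11.87 and 12.15 at day 40. The groups did not overlap, but the change of 1.38 (adjusted p = 0.0101) lost its call without replicate 2 of day 7. Parm1, a mucin-like membrane protein, rose by 1.41 ± 0.16 (SE, adjusted p = 7.51e-06) and had 2 probe sets that changed alike. Hhex, a homeobox factor needed for memory B cells, read 4.29, 3.11 and 6.00 at day 7 and 7.27, 6.40 and 6.79 at day 40. Its change of 2.35 (adjusted p = 0.0188) lost its call without replicate 1 or 2 of day 7 or replicate 1 or 3 of day 40. Pdcd1lg2 (PD-L2), a ligand for the T cell receptor PD-1 and a marker of memory subsets, read 8.05, 7.46 and 8.55 at day 7 and 5.69, 5.20 and 3.73 at day 40, a change of -3.15 ± 0.50 (SE, adjusted p = 0.000251).

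Of 24 B cell identity factors, 2 were higher (Hhex and Tbx21) and 0 lower, beside 3.58% higher and 2.35% lower of all genes. The median change was 0.09. Tbx21 (T-bet), the factor of type 1 responses, read 3.15, 2.17 and 2.15 at day 7 and 4.53, 3.09 and 4.21 at day 40. Its values overlap between the days, and the call ended without replicate 2 or 3 of day 7 or replicate 1 or 3 of day 40. Bach2, a repressor that guards against plasma cell fate, overlapped at 13.18, 14.04 and 14.23 on day 7 and 13.81, 13.32 and 13.79 on day 40.

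Many of the widest rises at day 40 were those of genes outside the lists. Nrep (chromosome 18), a small neuronal protein named for its expression in regenerating tissue, was at background at day 7 (2.25, 2.15 and 2.15) and read 10.50, 10.44 and 10.39 at day 40. It was at least 258-fold higher (adjusted p = 3.78e-20), and a second probe set rose by 7.63. Fam135a (chromosome 1) read 3.14, 2.93 and 4.80 at day 7 and 11.52, 11.20 and 10.92 at day 40, with a change of 7.59 ± 0.54 (SE, adjusted p = 8.4e-09). Its 4 probe sets disagreed in size, from 0.00 for a set at background on all arrays to 7.59. Dmxl2 (chromosome 9), a scaffold protein of the vesicle proton pump, read 2.54, 2.29 and 2.26 at day 7 and 9.77, 9.12 and 9.23 at day 40. It went from near the floor to a clear signal, with a change of 7.01 ± 0.34 (SE, adjusted p = 3.46e-11).

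Osbpl3, an oxysterol-binding protein that acts at membrane contacts, rose by 6.50 ± 0.47 (SE, adjusted p = 9.7e-09), from 7.10, 4.18 and 4.68 to 11.86, 11.78 and 11.82. Gstt1, a glutathione transferase, rose by 6.09, Rflna, an actin-regulating filamin partner, by 6.05 and the long noncoding RNA Snhg14 by 5.89. Bmpr1a, a type I receptor for bone morphogenetic proteins, read 5.76, 4.22 and 3.32 at day 7 and 10.09, 9.64 and 9.95 at day 40, with a change of 5.46 ± 0.36 (SE, adjusted p = 2.94e-09). Of its 6 probe sets, 4 rose by 4.71 to 6.94 and the other 2 had no signal to speak of, at mean levels up to 2.37. Several more of the 20 widest rises belong to signalling. Ffar2, a receptor for short-chain fatty acids, rose by 4.92, Fer, a nonreceptor tyrosine kinase, by 5.20, and Cacna1d, the pore subunit of a voltage-gated calcium channel, by 4.84. Further probe sets of Fer changed by 0.00 and 0.22, at mean levels up to 2.37. Rgs9, a regulator of G protein signalling best known from the retina, was at background at day 7 and at least 28.5-fold higher at day 40. Its other probe sets changed by 0.23 and 1.23, at mean levels up to 3.38. Trpm5, a calcium-activated cation channel of taste cells, read 7.96, 7.88 and 8.14 at day 40 from background at day 7, at least 47.3-fold higher. Its other probe sets changed by 5.79 and 0.29. Evc, a ciliary protein of hedgehog signalling, rose by 5.18, a call that ended when only the 6 germinal center arrays were fitted. Pik3cb, a catalytic subunit of PI3 kinase, rose by 3.74 ± 0.34 (SE, adjusted p = 3.07e-07), the 1 rise among 23 PI3K pathway and FoxO genes (median change -0.13). The 1 fall there, Pik3cg, was near both thresholds (adjusted p = 0.0481) and lost its call without any 1 of the 6 arrays.

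**Figure D3:**
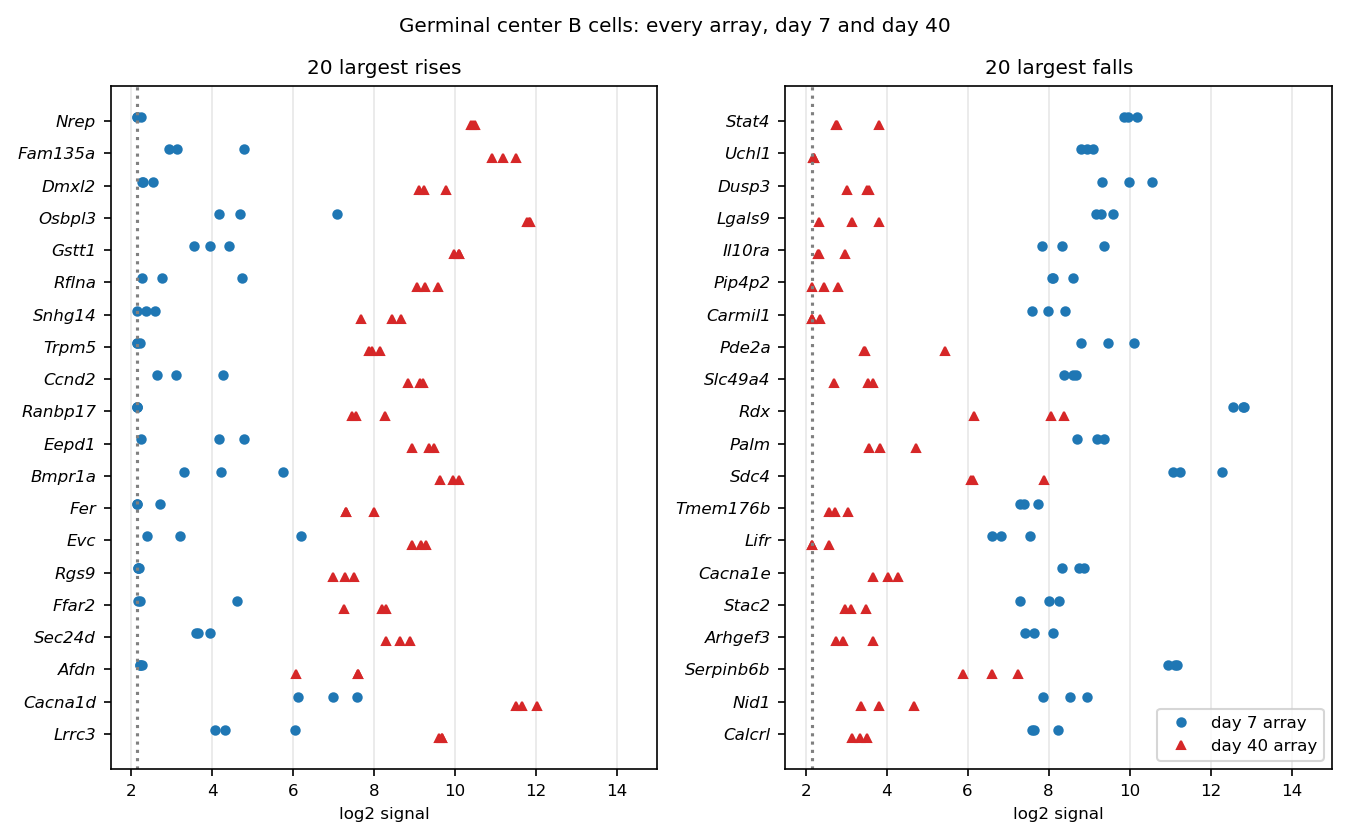
Log2 signal on every germinal center array for the 20 genes with the largest rises (left) and the 20 with the largest falls (right), day 7 as blue circles and day 40 as red triangles, with the floor of 2.15 dotted. The days do not overlap for any gene shown, a condition of the choice, and Nrep moves from the floor to 10.39 or more.

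At day 40, 44 called genes were above background on all 3 arrays after lying at background at day 7. Of these, 19 were at background in all 7 other groups as well, so they passed the filter on low signals through the day 40 arrays alone. Ranbp17, a nuclear transport receptor, read 8.27, 7.47 and 7.55 at day 40 and 2.15 on each day 7 array, at least 40.3-fold higher. Its other probe sets changed by 0.44 and 1.79, at mean levels up to 3.94. Vsnl1, a neuronal calcium sensor, read 6.96, 6.26 and 6.92 at day 40 (at least 19.5-fold higher), and Stbd1, a glycogen-binding protein, 7.07, 5.95 and 6.57 (at least 17.1-fold higher). Il33, a cytokine of barrier and stromal cells, read 2.15, 2.24 and 2.15 at day 7 and 5.87, 5.50 and 5.88 at day 40, with like values in replicate 1 and in the other day 40 arrays. Lgr6, a receptor for R-spondins, read 6.45, 3.36 and 6.59 at day 40, and Cd70, the ligand of the T cell receptor CD27, 3.51, 2.54 and 4.57, so these signals varied among replicates. The others were 9230112D13Rik, Atf7ip2, Ccdc120, Ccno, Fhl1, Ggt7, Rgs4, Rgs9, Susd4, Tex14, Tgfbr3, Trpm5 and Tusc1. In bulk samples, fewer cells of a type and less RNA per cell cannot be told apart, and this holds for every change given here.

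The widest fall was that of Stat4 (chromosome 1), which carries IL-12 and interferon signals to the nucleus. It read 9.96, 9.87 and 10.18 at day 7 and 3.82, 2.75 and 2.77 at day 40, and follicular B cells had a mean level of 11.79. The change was -6.89 ± 0.23 (SE, adjusted p = 7.49e-14). Uchl1, a ubiquitin hydrolase known from neurons and from germinal center B cells, read 9.09, 8.80 and 8.95 at day 7 and was at background at day 40 (2.19, 2.20 and 2.21). It was at least 92.4-fold lower at day 40 (adjusted p = 0.000297). Il10ra, the ligand-binding chain of the IL-10 receptor, read 9.38, 7.83 and 8.33 at day 7 and 2.96, 2.34 and 2.30 at day 40, a change of -5.98 ± 0.32 (SE, adjusted p = 1.4e-10). Day 40 values of these genes lay close to the floor on all arrays.

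Lgals9, a galectin that dampens antigen receptor signals, changed by -6.26 and Dusp3, a phosphatase of MAP kinases, by -6.58. Rdx (radixin), which links actin to the membrane, read 12.56, 12.83 and 12.80 at day 7 and 8.38, 8.05 and 6.15 at day 40. Its 3 probe sets fell together, with changes from -5.20 to -6.06 (adjusted p = 5.68e-09 for the one tested). Sdc4, a heparan sulfate proteoglycan of the cell surface, read 11.24, 11.07 and 12.29 at day 7 and 7.88, 6.14 and 6.09 at day 40, a change of -4.83 ± 0.39 (SE, adjusted p = 4.49e-08). Other falls were those of Carmil1, a regulator of actin capping (at least 47.7-fold lower), Pde2a, a cyclic nucleotide phosphodiesterase (-5.35), Lifr, the receptor for leukemia inhibitory factor (-4.70), Nid1, a basement membrane protein (-4.49), and Cacna1e, a calcium channel subunit (-4.67). Calcrl, a calcitonin receptor-like receptor, had a change of -4.49, from a mean of 7.82 to 3.33. The alternative that leaves out names ending in _a_at dropped this probe set. A set near the floor, at 2.28 and 2.16, took its place and changed by -0.12. In total, 12 called genes went from above background at day 7 to background at day 40: Art4, Carmil1, Fnip2, Frmd4b, Gpat3, Hsd17b11, Nxnl2, Oas1a, Sec16b, Sult1a1, Uchl1 and Zfp516.

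Genes of follicular and naive B cells gave 7 falls and 0 rises among 16 tested, beside 2.35% lower of all genes, with a median change of -0.75 against 0.01 for all genes. The members that fell were Cd55, Ccr7, S1pr1, Gpr183, Bcl2, Satb1 and Pde2a. Cd55, a complement regulator, read 8.66, 8.68 and 8.85 at day 7 and 6.27, 5.06 and 5.53 at day 40, a change of -3.11 ± 0.33 (SE, adjusted p = 2.47e-06), with 3 probe sets between -2.25 and -3.11. Satb1, a chromatin organizer, read 11.74, 11.08 and 12.80 at day 7 and 10.68, 10.41 and 10.38 at day 40. Its change of -1.38 (adjusted p = 0.0049) lost its call without replicate 3 of day 7. Fcer2a (CD23) read 10.73, 10.76 and 11.50 at day 7 and 10.12, 10.35 and 10.46 at day 40, lower on every array but by less than the minimum change, and Cr2 (CD21), a complement receptor, overlapped with a change of 0.33. The count was 4 without replicate 3 of day 7 and 3 with the 6 germinal center arrays alone.

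Receptors that guide B cells through lymphoid tissue fell in 6 of 21 cases and rose in 0, beside 2.35% lower of all genes. The median change was -0.11. Ccr7, S1pr1 and Gpr183 were already counted in the follicular and naive B cell list, so the 2 counts are not separate. S1pr4, a sphingosine phosphate receptor, read 9.89, 9.26 and 9.33 at day 7 and 7.78, 7.33 and 7.98 at day 40, a change of -1.80 ± 0.33 (SE, adjusted p = 0.000993). Itgb7, the integrin chain of mucosal homing, read 8.52, 7.98 and 8.27 at day 7 and 6.40, 3.96 and 4.52 at day 40, a change of -3.30 ± 0.46 (SE, adjusted p = 6.05e-05). S1pr1, the receptor that directs exit into the blood, read 4.96, 6.46 and 6.65 at day 7 and 3.64, 3.64 and 3.68 at day 40, and its call (adjusted p = 0.0107) ended without replicate 3 of day 7. Gpr183 (EBI2), which draws activated B cells to the follicle border, read 8.07, 7.73 and 7.21 at day 7 and 6.93, 6.55 and 5.96 at day 40 (adjusted p = 0.0355).

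Ccr7, the receptor for T zone chemokines, was split at day 40. It read 9.12, 8.51 and 9.32 at day 7 and 9.18, 5.82 and 4.13 at day 40, so replicate 1 stayed at the day 7 level. The change of -2.61 (adjusted p = 0.0267) became -4.01 without replicate 1 of day 40 and -1.48, not called, without replicate 3. Ccr6, the receptor for the chemokine CCL20, also overlapped between the days, with a change of -1.02 (adjusted p = 0.0354). The calls for Ccr7 and Ccr6 ended without any of replicates 1 and 3 of day 7 and 2 and 3 of day 40, and that for Gpr183 without any of replicates 1 and 2 of day 7 and 2 and 3 of day 40. The list count was 3 without any of replicates 1 and 3 of day 7 and 2 and 3 of day 40, and 1 with the 6 germinal center arrays alone. Cxcr5, the receptor that brings B cells into follicles, had a change of -0.02.

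Of 11 genes of the BCL2 family, 2 were lower and 0 higher, beside 2.35% lower and 3.58% higher of all genes. The median change was -0.11. The 2 that fell act in opposite directions. Bcl2, which protects cells from death and is kept low in germinal centers, read 5.73, 5.36 and 5.12 at day 7 and 3.76, 2.49 and 2.57 at day 40, against 12.19 in follicular B cells. The change was -2.46 ± 0.31 (SE, adjusted p = 1.85e-05), but its other 4 probe sets had levels near the floor, and the mean over all probe sets changed by -0.84 and was not called. Bcl2l11 (Bim), which promotes death, read 13.17, 12.88 and 13.18 at day 7 and 11.83, 11.46 and 11.76 at day 40, a change of -1.39 ± 0.20 (SE, adjusted p = 0.00011). All 5 of its probe sets were lower, by changes of -1.30 to -2.80.

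Antigen receptor signalling genes gave 3 falls and 0 rises among 23 tested, beside 2.35% lower of all genes, with a median change of -0.24. Bank1, a B cell scaffold protein, read 12.87, 12.68 and 13.18 at day 7 and 11.43, 11.10 and 11.13 at day 40, a change of -1.69 ± 0.23 (SE, adjusted p = 3.88e-05). Cd72, an inhibitory receptor, read 12.23, 11.91 and 12.27 at day 7 and 10.31, 10.71 and 10.95 at day 40, a change of -1.48 ± 0.18 (SE, adjusted p = 1.31e-05). Both were clearly expressed on both days without overlap. The call for Pirb, an inhibitory immunoglobulin-like receptor, ended without replicate 1 or 3 of day 7 or replicate 2 of day 40. The core of the pathway was not called: Cd79b had a change of -0.12, Syk -0.16, Btk -0.58 and Blnk -0.27.

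Of 32 cytokine receptor and costimulation genes, 3 rose and 3 fell, beside 3.58% higher and 2.35% lower of all genes. The median change was -0.07. The rises were Bmpr1a, Cd40 and Tnfsf9 (4-1BB ligand), a costimulatory ligand for T cells. Tnfsf9 read 8.35, 6.98 and 5.76 at day 7 and 10.93, 11.23 and 11.19 at day 40, with spread at day 7 only and a change of 4.09 ± 0.44 (SE, adjusted p = 2.56e-06). The falls were Il10ra, Pdcd1lg2 and Ifnar2, a chain of the type I interferon receptor, which read 6.39, 5.91 and 6.91 at day 7 and 4.18, 3.23 and 4.09 at day 40 (a change of -2.57 ± 0.35, SE, adjusted p = 4.47e-05). Il21r, the receptor for the T follicular helper cytokine IL-21, had a change of 0.51 and was not called. Among 22 integrin and adhesion genes, 2 fell (Itgb7 and L1cam) and 0 rose, and the call for L1cam ended without replicate 2 of day 7 or replicate 1 of day 40.

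Of 23 interferon-stimulated genes, 1 was higher and 2 lower, beside 3.58% higher and 2.35% lower of all genes. The median change was -0.21. Oas1a, an antiviral nucleotide synthetase, read 7.25, 6.68 and 5.84 at day 7 and was at background at day 40 (2.20, 2.18 and 2.18), at least 18-fold lower (adjusted p = 1.48e-08). Ifit2 fell by 1.74 on the log2 scale (adjusted p = 3.35e-05). Gbp2, a guanylate-binding protein, read 4.24, 3.05 and 3.02 at day 7 and 6.87, 3.62 and 5.85 at day 40. Its values overlap, and without replicate 1 of day 40 the change of 2.01 became 1.30 and was not called, as was also so without replicate 2 or 3 of day 7 or replicate 3 of day 40.

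Genes of antigen presentation and core metabolism were nearly level. Class II presentation gave 0 calls of 15 (median change 0.01), oxidative phosphorylation 0 of 22 (-0.13), cholesterol synthesis and uptake 0 of 16 (0.01) and chromatin and DNA methylation enzymes 0 of 25 (0.05). Glycolysis gave 1 fall of 19 (Pfkm, a muscle-type phosphofructokinase at 5.26, 3.88 and 4.04 on day 7 and 2.89, 2.80 and 3.61 on day 40), a call that ended without replicate 1 of day 7 or replicate 1 or 2 of day 40. Ribosome biogenesis and MYC target genes gave 1 rise of 25 (Polr1b, a subunit of RNA polymerase I), with a median change of 0.29, and the call was kept without replicate 1 of day 7 but ended without any other of the 6 arrays. The toll-like receptor pathway gave 1 rise of 16 (Tlr3, a sensor of double-stranded RNA), with a median change of -0.09, and rests on a probe set with a cross-hybridizing name.

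The levels of the called genes in the other B cell groups were then compared. The 401 genes higher at day 40 had a median level of 7.93 there, 5.49 at day 7, 4.44 in follicular B cells and 6.70 in memory B cells of day 40. Of them, 27.4% were at background in follicular cells, against 8.4% of all tested genes. A gene at background elsewhere can enter the test through the day 40 arrays alone, where all 401 lay above background. These shares are thus partly set by the choice of genes. The 263 genes lower at day 40 had a median level of 5.27 there and 7.93 at day 7, but 9.55 in follicular cells, 9.63 in memory cells of day 7 and 9.32 in memory cells of day 40. All tested genes had a median level of 9.56 in follicular cells. Germinal center arrays of day 40 correlated with follicular arrays at r = 0.843 to 0.858 and those of day 7 at 0.868 to 0.885, across genes. The ranges do not overlap, and the same was so with marginal zone B cells (0.847 to 0.857 and 0.861 to 0.883), while with plasma cells the ranges met (0.826 to 0.844 and 0.844 to 0.858). Against memory cells of day 7 they overlapped (0.875 to 0.933 and 0.897 to 0.955). These values describe the arrays and were not tested.

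**Figure D4:**
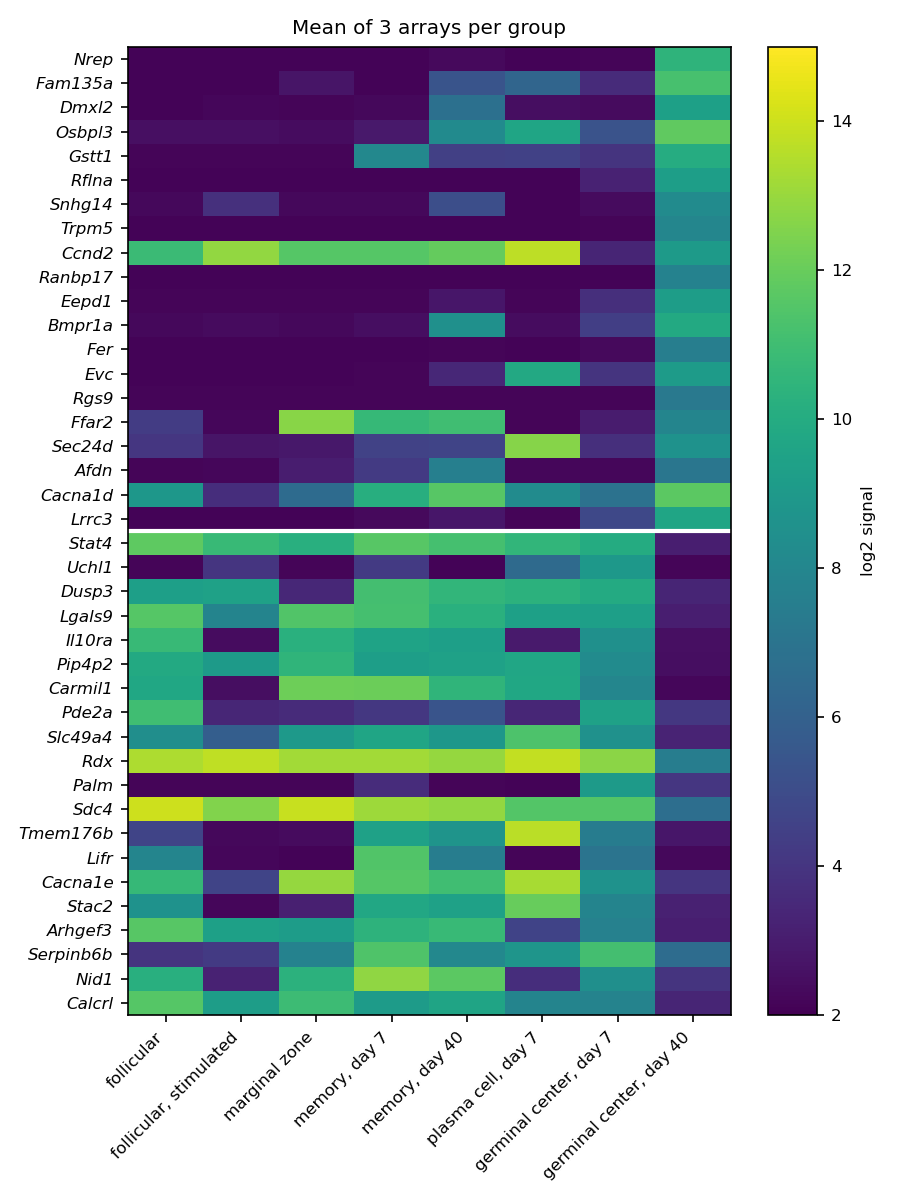
Mean log2 signal of 3 arrays (colour) in each of the 8 groups for the 20 genes with the largest rises (above the white line) and the 20 with the largest falls (below it). Most of the rises are dark in follicular cells, as Nrep at 2.15, and most of the falls are bright there, as Stat4 at 11.79.

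Memory B cells, sorted from the same kind of mice as IgG1+ CD38+ PNA- cells at the same days, were compared to ask which day changes differed between the cell types. Replicate 1 of memory cells at day 7 stood apart in some genes that were high in germinal center cells of day 7. In the memory arrays of day 7, Gcsam read 9.21, 2.26 and 2.40, S1pr2 10.81, 4.99 and 7.76, and Cd93 7.95, 4.12 and 5.21. At day 40 Gcsam read 6.33, 7.46 and 2.71 in memory cells. The part of this array was not tested beyond leaving it out. In memory cells, 307 genes (2.74%) were higher at day 40 and 256 (2.28%) lower. Of the 401 genes higher in germinal center cells, 76 (19%, or 24.8% of the memory list) were also higher in memory cells and 10 were lower. Of the 263 lower genes, 31 (11.8%, or 12.1% of the memory list) were also lower in memory cells and 5 were higher. The day change itself was higher in germinal center than in memory cells for 325 genes (2.9%) and lower for 228 (2.03%), tested as an interaction in the same model. These included 173 of the 401 (43.1%) and 129 of the 263 (49%). The germinal center change enters both tests, so these 2 shares are partly set by the choice of genes. Without replicate 1 of memory cells at day 7, the counts of the interaction were 324 and 241. When arrays were shifted to the same median, which moved the day change in germinal center cells by a median of -0.11, the counts of the interaction were 272 and 305, so that the share of higher genes was 47.1% in place of 58.8%. The comparisons share no arrays, and their changes correlated at r = 0.24 across genes.

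Nrep, Ccnd2, Prdm1, Stat4 and Il10ra differed from memory cells. The day change of Ccnd2 was 0.32 in memory cells and 5.41 higher in germinal center cells (adjusted p = 1.57e-07). For Stat4 it was -0.46 in memory cells, with a difference of -6.43 (adjusted p = 9.96e-11). Prdm1 had a memory change of -0.82 and a difference of 4.05 (adjusted p = 0.00288). Gstt1 moved in opposite directions, with a change of -3.65 in memory cells (adjusted p = 2.58e-06) and a difference of 9.74. Batf also did, with a memory change of -1.38 (adjusted p = 0.00681) and a difference of 2.83 (adjusted p = 0.000316).

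Some of the widest changes occurred in both cell types. Bmpr1a rose by 6.04 in memory cells and Osbpl3 by 5.34, with differences of -0.58 (adjusted p = 0.603) and 1.16 (adjusted p = 0.366) that did not pass the test. Dmxl2 rose in both, by 4.49 in memory cells, and more in germinal center cells (a difference of 2.52, adjusted p = 0.00295). Lifr and Serpinb6b, a protease inhibitor, fell in both, with memory changes of -3.97 and -3.38. Bcl2l11 fell alike, with a memory change of -1.59 and a difference of 0.20 (adjusted p = 0.807). The plot of germinal center against memory changes shows these genes along the diagonal and Nrep, Stat4 and Il10ra along the horizontal axis.

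**Figure D5:**
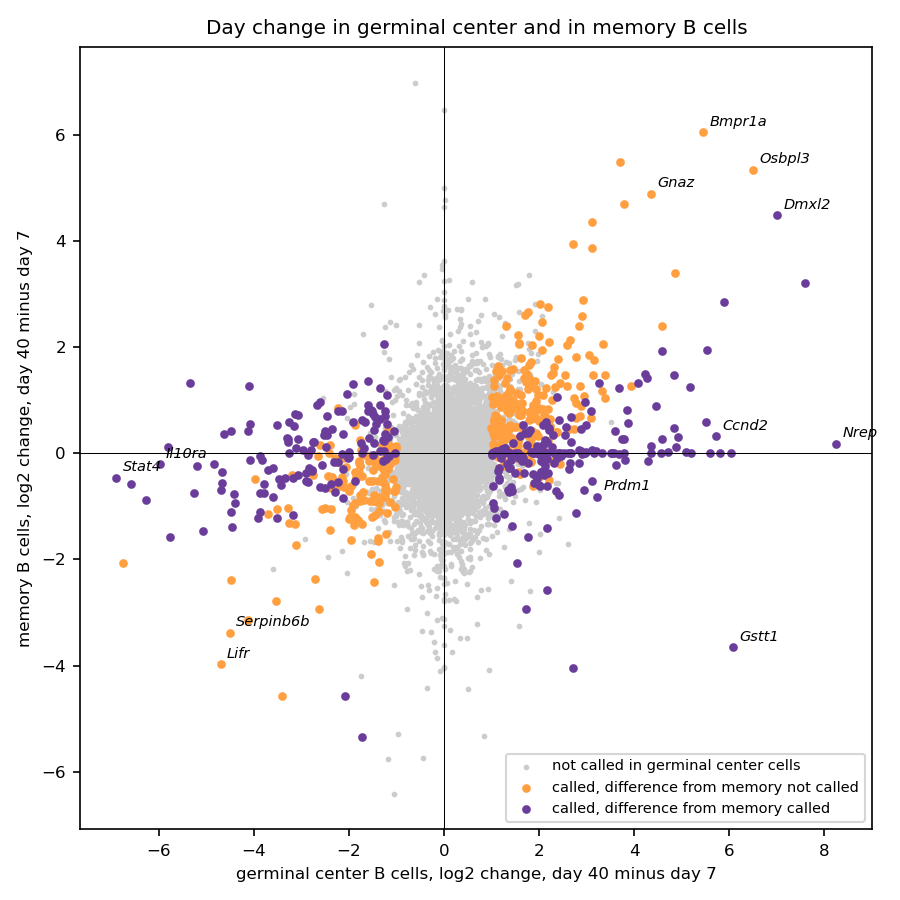
Log2 change from day 7 to day 40 in germinal center B cells (horizontal) and memory B cells (vertical) for 11208 tested genes, with genes called in germinal center cells in colour, purple where the difference from memory cells was called as well. Nrep, at background at day 7, is drawn at fitted values of 8.26 and 0.18, Bmpr1a at 5.46 and 6.04, and Gstt1 at 6.09 and -3.65.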

How the data were processed

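The series holds 24 arrays, 3 in each of 8 B cell groups taken from the sample labels, and 6 of them are germinal center arrays. The deposited values are log2 signals per probe set made by the authors with GCRMA, per the submitters' processing notes, with no version given. No further normalization was applied. A probe set's gene came from the platform annotation: of 45101 probe sets, 34945 had 1 gene symbol, 932 several and 9160 none, and 64 were controls. For each of 18193 genes the probe set of highest average signal was kept, and the 11208 genes that exceeded the array median on 3 or more arrays were tested. Limma (version 3.58.1, R 4.3.3) fitted a mean for each of 8 groups, with moderated variances and Benjamini-Hochberg adjustment. A gene was called at an adjusted p under 0.05 and a log2 change of at least 1. A lower bound sets each array at background to its own median. The procedure was tested on simulated data.

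Members, gene lists (37, with 691 genes) and tests were chosen with earlier results of these data known. Genes named were the 20 largest rises and falls among called genes whose arrays do not overlap (placeholder names left out), index genes and members of the lists, and genes going to or from background. Alternatives changed the filter (none, or the 75th percentile), the scaling (quantiles, or a common array median) and the offset (16 added before taking logs). Probe sets were averaged per gene, or those with names ending in _a_at, _s_at or _x_at were left out. Others changed the prior (trended, robust), the weights of arrays, the groups fitted (the compared ones alone) and the minimum change (none). The last added a replicate block or left out each array in turn. Labels give no batch or scan date. The number of arrays limits the precision. Python 3.11.15 with matplotlib 3.10.9 drew the figures.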

Additional observations from a re-analysis of the deposited data

Results flagged for a closer look

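For 56 of 98 named genes, the log2 change from day 7 to day 40 in germinal center B cells differed from that in memory B cells. The interaction contrast in limma was called at an adjusted p under 0.05 and a difference of at least 1. Over all tested genes, 2.9% were called higher and 2.03% lower in this contrast. Most named genes were chosen by their germinal center change, which is part of the difference, so a high count was partly set by the choice. The difference, germinal center minus memory, was positive for 26 of the 56. Nrep, Trpm5, Ranbp17, Rgs9, Ier3, Oas1a, Carmil1 and other genes at background in a group have fitted differences that depend on the floor, so their sizes and order are not measured. Positive fitted differences were those of Gstt1 (9.74), Nrep (8.08), Rflna (6.05), Trpm5 (5.82), Ranbp17 (5.61), Ccnd2 (5.41), Fer (5.20), Rgs9 (5.06) and Eepd1 (4.94). Further values were those of Sec24d (4.76), Ffar2 (4.62), Fam135a (4.38), Lrrc3 (4.37), Prdm1 (4.05), Evc (3.94), Socs3 (3.84), Ier3 (3.70) and Pik3cb (3.48). The others were Cacna1d (3.37), Snhg14 (3.05), Batf (2.83), Tnfsf9 (2.76), Ebi3 (2.64), Dmxl2 (2.52), Parm1 (1.54) and Nr4a2 (1.40).

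The difference was negative for 30. Fitted values were those of Pde2a (-6.66), Stat4 (-6.43), Dusp3 (-6.00), Pip4p2 (-5.91), Il10ra (-5.78), Lgals9 (-5.38), Arhgef3 (-4.97), Rdx (-4.95), Calcrl (-4.91), Sdc4 (-4.63) and Slc49a4 (-4.51). Others were Stac2 (-4.31), Carmil1 (-4.21), Cacna1e (-4.11), Tmem176b (-4.00), Pdcd1lg2 (-3.66), Palm (-3.59), Itgb7 (-3.57), Oas1a (-3.47), Nid1 (-3.39), Ckap4 (-3.21) and Cd55 (-3.20). The remainder were Bcl2 (-3.17), Cd93 (-3.06), L1cam (-2.94), Gpr183 (-2.28), Ifit2 (-1.93), Cd72 (-1.91), Bank1 (-1.79) and Cdkn1b (-1.13). Both cell types were sorted from immunized mice at the same days, and the cause of the differences was not tested.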

How the results depend on the processing

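The counts of 401 higher and 263 lower genes, and of 325 and 228 genes whose day change was higher or lower in germinal center than in memory cells, stayed within 1.5 times under most alternatives. The stricter filter, which tests fewer genes, gave 219 higher genes, 216 of them among the 401, and 185 with a higher day change than memory cells. Fitting only the compared groups gave 157 lower genes, dropping the minimum change gave 424, and array weights gave 597 and 378 genes with a higher or lower day change than memory cells. Leaving out each array gave 328 to 456 higher and 205 to 281 lower genes, and 242 to 324 and 174 to 247 for the difference from memory cells. Deviations of same-numbered germinal center samples correlated at r = 0.155, 0.23 and -0.038, and those of differently numbered ones at -0.285 to 0.121. With 3 arrays a day, these values cannot decide whether the numbers pair the samples. Under the replicate block 403 genes were higher and 258 lower, and 315 and 226 differed from memory cells. That block ended the calls of Gpr183 and Pik3cg. Among named genes, no call of the day change in germinal center cells reversed its direction. For the difference from memory cells, higher genes outnumbered lower ones in the main run (325 and 228). With arrays shifted to the same median, lower genes outnumbered higher ones (305 and 272). Of 86 named genes with a call, 55 kept it under each alternative that gave a value, which for 35 of them was all 18. Fitting only the compared groups ended 21 calls, those of Ccr6, Ccr7, Cdkn1b, Ckap4, Ebi3, Egr2, Evc, Fosl2, Gbp2, Gpr183, Hhex, Itgb7, Nr4a2, Nt5e, Pdcd1lg2, Pfkm, Pirb, S1pr1, Satb1, Tbx21 and Tyms. Signal over background limits genes near the floor, whose changes are lower bounds. The cause of these shifts was not tested.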

Other observations

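Genes of the primary cilium, a list written after the data were examined, leaned towards day 40 in germinal center B cells. The list holds 62 genes of the BBSome, intraflagellar transport, the transition zone and related complexes, of which 48 were tested. Of these, 14 (29.2%) were called higher and 0 lower, against 3.58% higher of all tested genes. Of the 48, 41 had a positive change, and the median change was 0.50. The median day 7 level was 7.36 for the list, 9.61 for all tested genes and 5.49 for all genes called higher. The share of higher calls among genes of like level was not computed. Called members included Tmem231, a transition zone protein, which rose by 2.97 ± 0.36 (SE, adjusted p = 1.1e-05), Cep290, a centrosomal protein of the same zone (2.86 ± 0.41, SE, adjusted p = 8.43e-05), Ahi1, a ciliary adaptor (1.76 ± 0.20, SE, adjusted p = 6.22e-06), Bbs2, a BBSome subunit (1.78 ± 0.34, SE, adjusted p = 0.00145), and Ift74, a subunit of the transport particle (1.83 ± 0.43, SE, adjusted p = 0.00979). The others were B9d1, Bbs5, Bbs9, Evc, Ift43, Lca5, Nphp4, Tmem17 and Wdr35. Without replicate 1 of day 40 there were 11 calls, with only the compared groups fitted 6, and with arrays shifted to the same median 12 higher and 1 lower. In memory B cells 4 of the 48 were higher at day 40 and 0 lower, with a median change of 0.13. Because the list was chosen with the values in view, the counts are a description with no test.

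Genes with symbols of the form Zfp and a number, mostly zinc finger factors, were counted in the same way. Of 253 tested, 19 (7.5%) were higher at day 40 and 2 lower, beside 3.58% higher and 2.35% lower of all genes. The median change was 0.18. The median day 7 level of the 253 was 7.23, also below the 9.61 of all tested genes. Without replicate 1 of day 40, 17 were higher and 3 lower. With arrays shifted to the same median the median change was 0.07, with 17 higher, and with only the compared groups fitted 9 (3.6%) were higher and 1 lower. In memory cells 13 were higher and 6 lower, with a median change of 0.19. Zfp365 rose by 4.47 ± 0.31 (SE, adjusted p = 8.1e-09), while Zfp827 changed by -3.25 ± 0.43 (SE, adjusted p = 3.24e-05).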
